A study of Mus musculus with 6 samples.

Results

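The 10 genes described here are targets and regulators of Wnt/β-catenin signaling in the pericentral hepatocyte: Axin2, Lgr5, Lgr4, Tbx3, Rnf43, Znrf3, Ctnnb1, Tcf7l2, Nkd1 and Notum. They were chosen by name from GENCODE release M21 and found by versioned Ensembl identifier among the 55450 genes counted in every library. All 10 were among the 17037 genes with enough counts to be tested, so none was lost to the filter on low values. Their levels were compared in bulk RNA-Seq of hepatocytes between 0 h, before any resection, and 48 h after partial hepatectomy (PHx), an operation that resects the larger part of the liver. Each time point had 3 libraries, from C57BL/6 mice (C57BL/6J in the study's methods) on a normal diet that the labels give as 10 to 12 weeks old. Hepatocytes had been isolated by collagenase perfusion, and the study's methods describe male mice, somewhat younger than the labels give, and biological replicates. The 0 h group was undamaged liver and no sham-operated group was analysed here, so an effect of surgery and an effect of lost liver mass cannot be told apart.

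In the liver lobule, Wnt proteins and R-spondins secreted by endothelial cells of the central vein act on the hepatocytes around it. Frizzled and LRP receptors pass the signal on, the destruction complex of Axin, APC, GSK3 and casein kinase 1 releases β-catenin, and β-catenin joins TCF/LEF factors on DNA to turn on target genes. Lgr4 and Lgr5 bind R-spondins and so restrain the membrane ubiquitin ligases Rnf43 and Znrf3, which remove Frizzled. Several targets, among them Axin2, Rnf43, Znrf3, Nkd1 and Notum, are themselves inhibitors of the pathway.

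At 48 h after PHx the 10 genes did not move together. Axin2 and Tbx3 were higher, by 1.63-fold and 1.74-fold. Lgr4, Tcf7l2 and Nkd1 were lower, by 1.34-fold, 1.33-fold and 1.65-fold. Rnf43, Znrf3, Ctnnb1, Lgr5 and Notum did not pass the test. Thus 2 of the 10 were called higher, against 21.4% of all genes tested, and 3 of the 10 were called lower, against 19.3%. The median log2 fold change of the 10 was 0.02, and that of all genes tested was −0.003 with quartiles of −0.431 and 0.418. The share of the 10 genes that changed was therefore near that of all genes tested, of which 40.7% passed. The count of lower genes was 1 without 0 h replicate 3, 48 h replicate 1 or 48 h replicate 2. A call here is an adjusted p under 0.05 in the quasi-likelihood test of edgeR, adjusted over all genes tested by the Benjamini-Hochberg method, and the p-values measure the spread between these libraries.

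Gene counts summed to 31419443 to 36346220 per library at 0 h and 31684152 to 33093006 at 48 h, so that 3 counts were worth 0.0839 to 0.102 CPM (counts scaled to library size with TMM factors). Libraries of a time point correlated at 0.989 to 0.994 on the log2 CPM scale across genes, and those of different time points at 0.933 to 0.951. Hepatocyte transcripts dominated, with 10 markers such as Alb and Apoa1 summing to 104693 to 124723 CPM at 0 h and 72745 to 88654 CPM at 48 h, lower without overlap. Of these 10, 4 were called lower (40%, against 19.3% of all genes tested) and 1 higher (10%, against 21.4%). Markers of other liver cells were present, and the sums of endothelial and of stellate and fibroblast markers were lower in every 48 h library than in any 0 h library, whereas those of Kupffer cells and cholangiocytes overlapped. Summed CPM of 14 endothelial markers was 306 to 470 at 0 h and 214 to 241 at 48 h, with 13 of the 14 called lower (92.9%, against 19.3% of all genes tested). Summed CPM of 10 stellate and fibroblast markers was 113 to 176 and then 76.9 to 96.5, with 1 called higher and 2 lower of 9 tested (11.1% and 22.2%, against 21.4% and 19.3% of all genes tested). The lower sum came mainly from Reln (42.8 to 24.2 CPM) and Ecm1 (65.0 to 23.3 CPM), while Col1a1 was higher (0.815 to 4.02 CPM), so these markers did not move as a group. For 12 Kupffer cell markers the sums were 83.1 to 124 and then 119 to 147, with 3 called higher (25%, near the share of all genes), and for 9 cholangiocyte markers 35.1 to 63.1 and 47.0 to 58.7, with 1 of 3 tested called higher (33.3%) and Krt7, Epcam, Cftr and Tspan8 at or under 3 counts in every library. Replicate 1 was the lowest of the 0 h libraries for endothelial (306 CPM against 458 and 470), Kupffer cell (83.1 against 122 and 124) and stellate (113 against 163 and 176) markers. Without it, Axin2, Tbx3, Lgr4 and Nkd1 had log2 fold changes of 0.79, 0.83, −0.42 and −0.91 (edgeR adjusted p = 0.00654, 0.00368, 0.0407 and 0.0181), Tcf7l2 lost its call (−0.35, 0.0825), and the other 5 genes did not pass the test. The sum of 8 neutrophil markers was 0.0903 to 0.408 CPM at 0 h and 0.653 to 1.06 CPM at 48 h, higher without overlap. That of 7 lymphocyte markers was 0.170 to 0.258 and then 0.119 to 0.475 CPM, with overlap. None of these markers had enough counts to be tested. In bulk RNA, fewer cells of a type and less RNA per cell cannot be told apart, and the part of these differences in the results below was not tested.

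Compared per length of exon, the genes spanned a wide range of levels. At 0 h the mean RPKM (CPM divided by exon length in kilobases, n = 3) ran from 22.6 ± 0.652 (SD) for Lgr4 and 20.8 ± 1.03 for Ctnnb1 to 1.68 ± 0.173 for Lgr5 and 0.531 ± 0.135 for Nkd1. The order at 0 h was Lgr4, Ctnnb1, Notum, Tcf7l2, Tbx3, Rnf43, Znrf3, Axin2, Lgr5 and Nkd1. The libraries of Lgr4 and Ctnnb1, of Tbx3 and Rnf43, of Rnf43 and Znrf3, and of Axin2 and Lgr5 overlapped, so those neighbors could not be ordered beyond their spread. At 48 h, Ctnnb1 stood first with 21.4 ± 1.58 and Lgr4 next with 16.9 ± 1.83, without overlap. Tbx3, at 8.74 ± 0.843, then overlapped Tcf7l2, at 7.88 ± 0.962, and Axin2, at 3.06 ± 0.305, no longer overlapped Lgr5, at 1.67 ± 0.213.

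**Figure D1:**
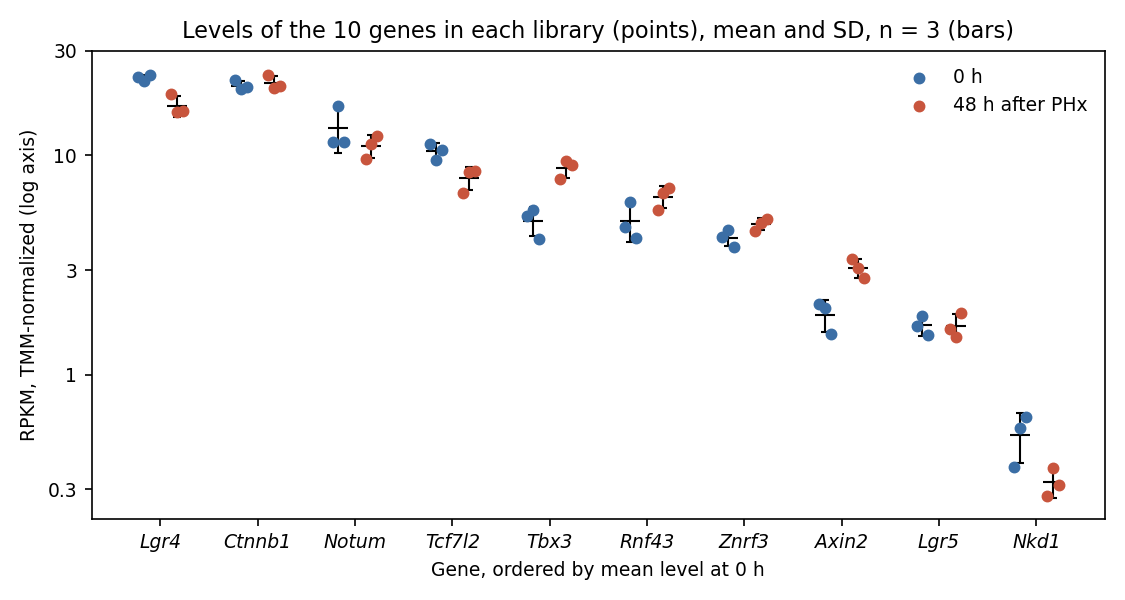
Levels of the 10 genes in TMM-scaled RPKM (vertical log axis) at 0 h and 48 h after PHx, 1 point per library, with bars for the mean and SD (n = 3). Axin2 and Tbx3 libraries at 48 h lie above all 0 h libraries, and those of Lgr4, Tcf7l2 and Nkd1 lie below.

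Among transcriptional targets, Axin2 was examined first because its transcription is the most widely used readout of β-catenin activity, and its protein is a scaffold of the destruction complex. Axin2 (ENSMUSG00000000142.15, GRCm38 chr11:108920349-108950783, plus strand) had 11.5, 11.1 and 8.40 CPM at 0 h and 18.5, 16.9 and 15.2 CPM at 48 h. Every 48 h library lay above every 0 h library. The mean went from 10.3 ± 1.68 to 16.9 ± 1.68 CPM (SD, n = 3), a log2 fold change of 0.71 (SE 0.149, 95% interval 0.38 to 1.04, edgeR adjusted p = 0.00364). The call stood in all 16 alternative analyses, with log2 fold changes of 0.58 to 0.90.

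Tbx3 encodes a T-box repressor that is a β-catenin target in liver and liver tumors. It lies at GRCm38 chr5:119670669-119684724 on the plus strand (ENSMUSG00000018604.18). Its libraries read 35.0, 37.3 and 27.6 CPM at 0 h and 51.6, 62.3 and 59.9 CPM at 48 h, again without overlap. The means were 33.3 ± 5.07 and 57.9 ± 5.59 CPM (SD, n = 3), and the log2 fold change was 0.80 (SE 0.132, 95% interval 0.50 to 1.09, edgeR adjusted p = 0.000846). Across the 16 alternatives it ranged from 0.68 to 1.0 and was called in each. Of the 10 genes, these were the only ones called higher, and 27.8% of all genes tested had every 48 h library above every 0 h library.

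Of the R-spondin receptors, Lgr4 was called lower and Lgr5 did not pass the test, and the difference between their changes was not tested. Lgr4 (ENSMUSG00000050199.13, GRCm38 chr2:109917647-110014257, plus strand), the broadly expressed receptor, had 133.7, 128.8 and 136.4 CPM at 0 h and 111.7, 92.6 and 93.5 CPM at 48 h, and each 48 h library was below all 0 h libraries. Its log2 fold change was −0.42 (SE 0.114, 95% interval −0.67 to −0.17, edgeR adjusted p = 0.0134). The call ended with scaling by library size only (−0.22, adjusted p = 0.117) and without 48 h replicate 2 (−0.39, adjusted p = 0.0560). Lgr5 (ENSMUSG00000020140.15, GRCm38 chr10:115450311-115587780, minus strand), the receptor that marks stem cells in the intestine and hepatocytes next to the central vein in liver, had 17.1, 19.0 and 15.5 CPM at 0 h and 16.6, 15.3 and 19.6 CPM at 48 h. The libraries overlapped throughout. The means were 17.2 ± 1.77 and 17.2 ± 2.18 CPM (SD, n = 3), with a log2 fold change of −0.004 whose 95% interval, −0.30 to 0.29, bounds the difference that these libraries leave possible (edgeR adjusted p = 0.984). Within each library the ratio of Lgr5 to Lgr4 in RPKM was 0.0732, 0.0847 and 0.0652 at 0 h and 0.0853, 0.0947 and 0.12 at 48 h, so the lowest 48 h library lay just above the highest 0 h library.

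The membrane ligases Rnf43 and Znrf3, which mark Frizzled for removal, did not pass the test. Rnf43 (ENSMUSG00000034177.15, GRCm38 chr11:87662722-87735539, plus strand) read 31, 40.1 and 27.4 CPM at 0 h and 37.0, 44.1 and 46.3 CPM at 48 h. The overlap came from 0 h replicate 2, which was above 48 h replicate 1. The log2 fold change was 0.37 (SE 0.149, 95% interval 0.04 to 0.70, edgeR adjusted p = 0.0702), and it was 0.54 without 0 h replicate 2 (adjusted p = 0.00804), 0.57 with library size only (adjusted p = 0.0163) and 0.35 without the filter on low counts (adjusted p = 0.0455), so the call depended on these settings. Znrf3 (ENSMUSG00000041961.14, GRCm38 chr11:5276324-5444847, minus strand) read 33.4, 36.1 and 30.3 CPM at 0 h and 35.6, 39.0 and 40.6 CPM at 48 h, with 1 pair of libraries crossing. Its log2 fold change was 0.21 (95% interval −0.03 to 0.45, edgeR adjusted p = 0.147), and only library size scaling brought a call (0.41, adjusted p = 0.0191). Per length of exon, in RPKM, the ratio of Rnf43 to Znrf3 was 1.18 ± 0.135 at 0 h and 1.33 ± 0.0685 at 48 h (SD, n = 3), with overlap.

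Nkd1 and Notum are feedback inhibitors: Nkd1 binds Dishevelled, and Notum is a secreted enzyme that strips the lipid from Wnt proteins. Nkd1 (ENSMUSG00000031661.12, GRCm38 chr8:88521354-88594884, plus strand) was the lowest of the 10, with 51, 81 and 97 counts at 0 h and 43, 61 and 50 at 48 h. In CPM these were 1.74, 2.61 and 2.92 and then 1.28, 1.71 and 1.43, and the time points were separated by a narrow gap. The log2 fold change was −0.72 (SE 0.254, 95% interval −1.28 to −0.16, edgeR adjusted p = 0.0436). This call was the least stable of the set, since it stood in 8 of 16 alternatives. It was lost with library size only (adjusted p = 0.137), with the replicate block (log2 fold change −0.70, adjusted p = 0.0531) and with limma-voom (adjusted p = 0.0517). It was also lost without 0 h replicate 2 (adjusted p = 0.0951) or 3 (0.153), and without 48 h replicate 1 (0.117), 2 (0.0571) or 3 (0.0983). Notum (ENSMUSG00000042988.10, GRCm38 chr11:120653788-120661175, minus strand) had 27.7, 40.4 and 27.8 CPM at 0 h and 23.1, 27.2 and 29.6 CPM at 48 h. The 0 h replicate 2 stood above every other library, and the rest overlapped. Its log2 fold change was −0.26 (95% interval −0.62 to 0.10, edgeR adjusted p = 0.222), and it was −0.06 without 0 h replicate 2 (adjusted p = 0.734). Antisense genes, Myadml2os and Notumos, cover 38.1% of its exon bases, and whether counting used strand is not given in the sources used here, so reads of Notum and of these genes may not be separable.

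In the nuclear arm of the pathway, Tcf7l2 was lower and Ctnnb1 did not pass the test. Ctnnb1 (ENSMUSG00000006932.17, GRCm38 chr9:120929216-120960507, plus strand), which encodes β-catenin and is controlled mainly through protein stability, had 114.1, 103.9 and 106.3 CPM at 0 h and 120.3, 105.1 and 107.4 CPM at 48 h. The log2 fold change was 0.04 (SE 0.107, 95% interval −0.20 to 0.28, edgeR adjusted p = 0.804), and its sign turned under upper quartile scaling (−0.05), TMM from protein-coding genes (−0.02) and without 48 h replicate 1 (−0.04). Exons of Ulk4 on the other strand cover 14.6% of its exon bases. Tcf7l2 (ENSMUSG00000024985.19, GRCm38 chr19:55741820-55933654, plus strand), the main TCF factor of hepatocytes, had 99.2, 83.2 and 93.3 CPM at 0 h and 59.4, 73.8 and 74.3 CPM at 48 h, without overlap. Its log2 fold change was −0.41 (SE 0.123, 95% interval −0.68 to −0.14, edgeR adjusted p = 0.0221). The call was lost with library size only (−0.20, adjusted p = 0.260) and without 0 h replicate 1 (−0.35, 0.0825), 0 h replicate 3 (−0.40, 0.0627) or 48 h replicate 1 (−0.33, 0.0615). Lgr4, Tcf7l2 and Nkd1 fell beside the lower endothelial markers given above, and the part of those cells was not tested. All 48 h libraries lay below all 0 h libraries for these 3 genes, as they did for 25% of all genes tested; in either direction, 5 of the 10 did not overlap, against 52.7% of genes.

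**Figure D2:**
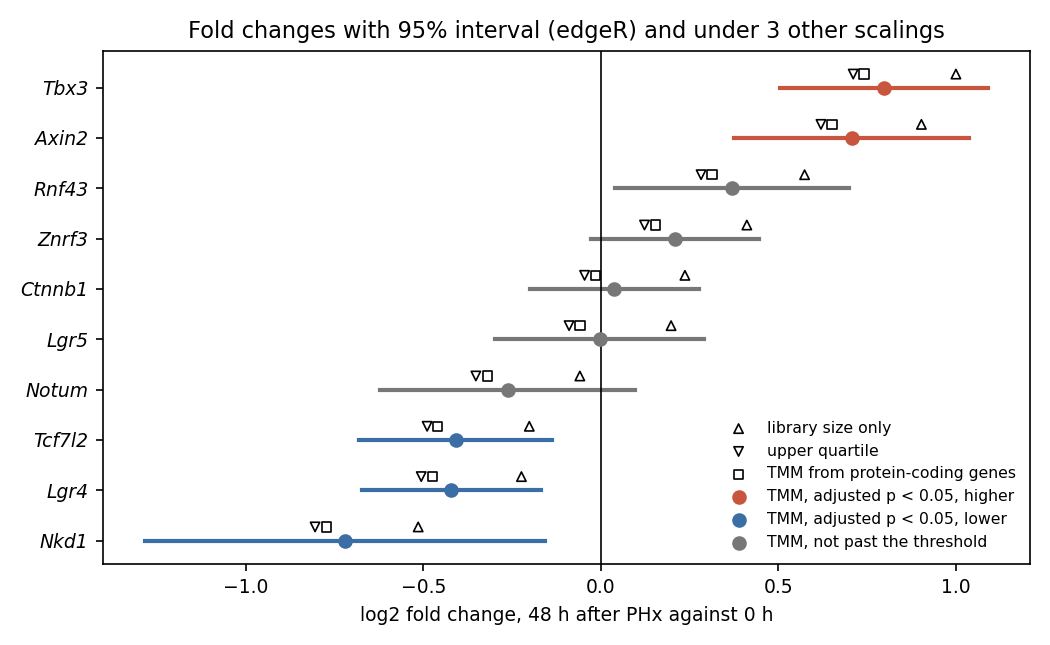
Log2 fold change at 48 h against 0 h for each gene (horizontal axis), with filled circles for the TMM-scaled edgeR estimate, lines for its 95% interval and open symbols for 3 other scalings. Axin2 and Tbx3 stay above 0 under each scaling, Lgr4, Tcf7l2 and Nkd1 stay below 0, and library size only shifts every gene up.

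The choice of scaling mattered to the directions called. With library size only, 5308 genes were called higher and 2110 lower (71.6% of calls higher), against 3638 and 3288 (52.5%) with TMM, and the median log2 fold change of all genes moved up by 0.20. Of the 10 genes, 4 were then called higher (Axin2, Tbx3, Rnf43 and Znrf3) and 0 lower. The ratio of each gene to Ctnnb1 within a library needs no scaling factor but takes Ctnnb1 as its reference, which was near 0 under TMM (log2 fold change 0.04) and at 0.24 with library size only, so it does not say which scaling's directions hold. In RPKM, the ratio of Axin2 to Ctnnb1 was 0.0901 ± 0.0137 at 0 h and 0.143 ± 0.00923 at 48 h (SD, n = 3), and that of Tbx3 was 0.242 ± 0.0389 and 0.412 ± 0.0674. For Lgr4 it went from 1.09 ± 0.0494 to 0.788 ± 0.0273, and for Tcf7l2 from 0.502 ± 0.0250 to 0.372 ± 0.0694. These 4 ratios did not overlap between time points, whereas those of Nkd1, Rnf43, Znrf3, Notum and Lgr5 did. Of the other genes tested, 50% had a ratio to Ctnnb1 that did not overlap, so 4 of 9 was near the background.

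Some of the genes can be set beside a close relative. Axin1, the constitutive scaffold of the destruction complex, had a log2 fold change of 0.21 (edgeR adjusted p = 0.147, and 0.0150 with library size only), and the ratio of Axin2 to Axin1 in RPKM was 0.345 ± 0.0306 at 0 h and 0.491 ± 0.0581 at 48 h (SD, n = 3), without overlap. Nkd2, the paralog of Nkd1, was higher at 48 h, at 0.428 ± 0.0322 and 1.03 ± 0.199 CPM (log2 fold change 1.26, edgeR adjusted p = 0.00645). In RPKM, the ratio of Nkd1 to Nkd2 went from 6.06 ± 1.87 to 1.52 ± 0.0845. Tcf7, the TCF factor best known from T cells, had 4.46, 5.86 and 4.28 CPM at 0 h and 19.1, 19.5 and 19.1 CPM at 48 h, a log2 fold change of 1.98 (edgeR adjusted p = 3.7e-06). The ratio of Tcf7l2 to Tcf7 in RPKM was 5.81 ± 1.35 at 0 h and 1.08 ± 0.125 at 48 h. The ratios are given as values, without a test.

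**Figure D3:**
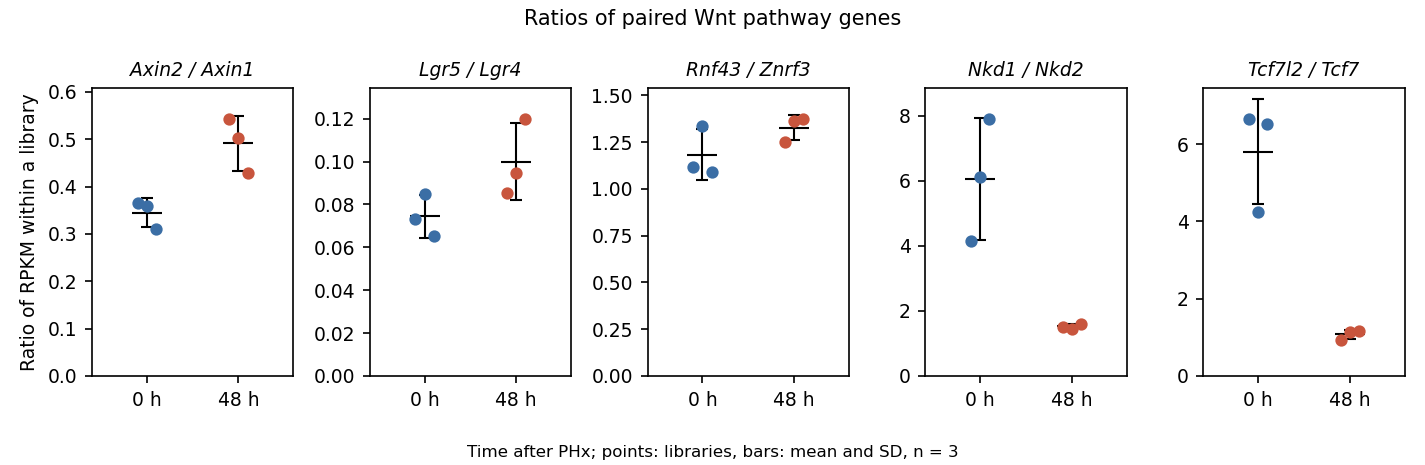
Ratio of RPKM within each library (vertical axes, starting at 0) for 5 pairs of related genes at 0 h and 48 h after PHx, with points for libraries and bars for the mean and SD (n = 3). Nkd1/Nkd2 and Tcf7l2/Tcf7 drop without overlap, Axin2/Axin1 and Lgr5/Lgr4 are above, and Rnf43/Znrf3 overlaps.

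The rest of the pathway was described from 6 lists, of ligands, R-spondins, receptors, cytoplasmic components, nuclear partners and inhibitors. Of 83 genes, 52 were tested, 12 were called higher (23.1%) and 8 lower (15.4%), against 21.4% and 19.3% of all genes tested, with a median log2 fold change of −0.05 against −0.003, so these shares were near those of all genes. Without 48 h replicate 2, 4 were called lower. Of the 21 ligand and secretion genes, 10 were tested, 3 were higher (30%, against 21.4% of all genes tested) and 1 was lower (10%, against 19.3%). Wnt9b, a ligand of central vein endothelium, went from 0.309 ± 0.0417 to 1.19 ± 0.220 CPM (SD, n = 3, edgeR adjusted p = 0.000712), and Wnt5a, a mainly noncanonical ligand, from 2.02 ± 0.460 to 5.37 ± 2.08 CPM (edgeR adjusted p = 0.00338). Wnt10a had 0 counts in every 0 h library and 138, 58 and 36 counts at 48 h, at least 23.3-fold higher by its mean against a floor of 3 counts per library. The bound was 13.8-fold without 48 h replicate 1 and 10.7-fold by the lowest 48 h library. Porcn, the enzyme that attaches lipid to Wnt proteins, fell by 0.90 on the log2 scale (edgeR adjusted p = 0.00246). Wnt2, the other central vein ligand, had 1.32 ± 0.561 and 0.988 ± 0.107 CPM, and Rspo3, the only R-spondin of 4 with enough counts to test, had 0.379 ± 0.225 and 0.537 ± 0.119 CPM, neither past the test (edgeR adjusted p = 0.339 and 0.425). Wnt2, Wnt9b and Rspo3 are endothelial genes in liver, and the summed endothelial markers were lower at 48 h, as given above; their part in these values was not tested.

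Of 13 receptor genes, 9 were tested, 4 were called lower (44.4%, against 19.3% of all genes tested) and 1 higher (11.1%, against 21.4%), with a median log2 fold change of −0.30. Fzd8 had 48.5, 35.0 and 47.7 CPM at 0 h and 11.3, 12.5 and 16.6 CPM at 48 h (log2 fold change −1.70, edgeR adjusted p = 3.5e-05). Fzd6 fell by 0.99 (edgeR adjusted p = 0.00321), Fzd7 by 0.53 (0.0129) and Fzd5 by 0.52 (0.0192) on the log2 scale. Fzd3, under 1 CPM in each library, rose by 1.26 (edgeR adjusted p = 0.0284). The coreceptors Lrp5 and Lrp6 had log2 fold changes of −0.30 and −0.22 (edgeR adjusted p = 0.0511 and 0.137), and Lrp5 was called lower in 6 alternatives, DESeq2 among them (0.0219). Calls for Fzd5 and Fzd7 were lost with library size only (adjusted p = 0.151 and 0.104). Leaving out 48 h replicate 2 ended those of Fzd7 (0.0531), Fzd5 (0.0610) and Fzd3 (0.0803). Fzd5 was also lost without 0 h replicate 1 (0.0595), 0 h replicate 3 (0.0581) or 48 h replicate 1 (0.0531), and Fzd3 without 0 h replicate 1 (0.0894) or 48 h replicate 3 (0.0996).

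In the destruction complex and its regulators, 4 of 14 genes were called higher by edgeR (28.6%, against 21.4% of all genes tested) and 0 lower (against 19.3%), with a median log2 fold change of −0.003. The share called higher was near that of all genes. At an unadjusted p under 0.05 there were 4 and 1, and DESeq2 called 2 and 0. The members called higher were Dvl3, which relays the signal from Frizzled, the kinases Csnk1a1 and Gsk3a, and Fbxw11, a ubiquitin ligase subunit that takes β-catenin to degradation. Their log2 fold changes were 0.31, 0.44, 0.33 and 0.32 (edgeR adjusted p = 0.0314, 0.0238, 0.0480 and 0.0402). These calls were not stable, since every library, when left out, ended at least 2 of them, with adjusted p-values of 0.0549 to 0.168. The replicate block ended all 4 (adjusted p = 0.0701, 0.0516, 0.0923 and 0.0564, in the same order), and upper quartile scaling and TMM from protein-coding genes each ended those of Dvl3, Gsk3a and Fbxw11 (0.0599 to 0.11). Apc and Gsk3b had log2 fold changes of 0.05 and 0.11 (edgeR adjusted p = 0.772 and 0.487), and Gsk3b was called with library size only (0.31, 0.0478).

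Among 13 nuclear partners, 12 were tested, 2 were higher and 2 lower (16.7% each, against 21.4% and 19.3% of all genes tested). Besides Tcf7, Cby1, a β-catenin antagonist, rose by 0.98 on the log2 scale (edgeR adjusted p = 0.00442). The Groucho corepressors Tle2 and Tle1 fell by 1.59 (edgeR adjusted p = 3.2e-05) and 0.45 (0.0199), and Tle1 lost its call with library size only (0.158), without 0 h replicate 1 (0.0559) or without 48 h replicate 2 (0.0740). Lef1 had at most 7 counts in any library and was not tested. Of 18 inhibitors, 6 were tested, and Frzb (from 0.288 ± 0.0145 to 0.720 ± 0.124 CPM, n = 3, edgeR adjusted p = 0.00862) and Nkd2 were higher. By edgeR, 33.3% of the 6 were called higher and 16.7% lower, against 21.4% and 19.3% of all genes tested. DESeq2 called 3 higher and 1 lower. With library size only, edgeR called 4 higher and 0 lower, a scaling under which 5308 of all genes tested were higher and 2110 lower. The additional genes, named after their values were seen, were Dact1 (log2 fold change 0.83, edgeR adjusted p = 0.0726, and 0.0438 by DESeq2) and, with library size only, also Dact2 (0.0143). Kremen1, a receptor for Dickkopf proteins, fell by 0.42 (edgeR adjusted p = 0.0140), and this call was lost with library size only (0.174) or without 48 h replicate 2 (0.0600).

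**Figure D4:**
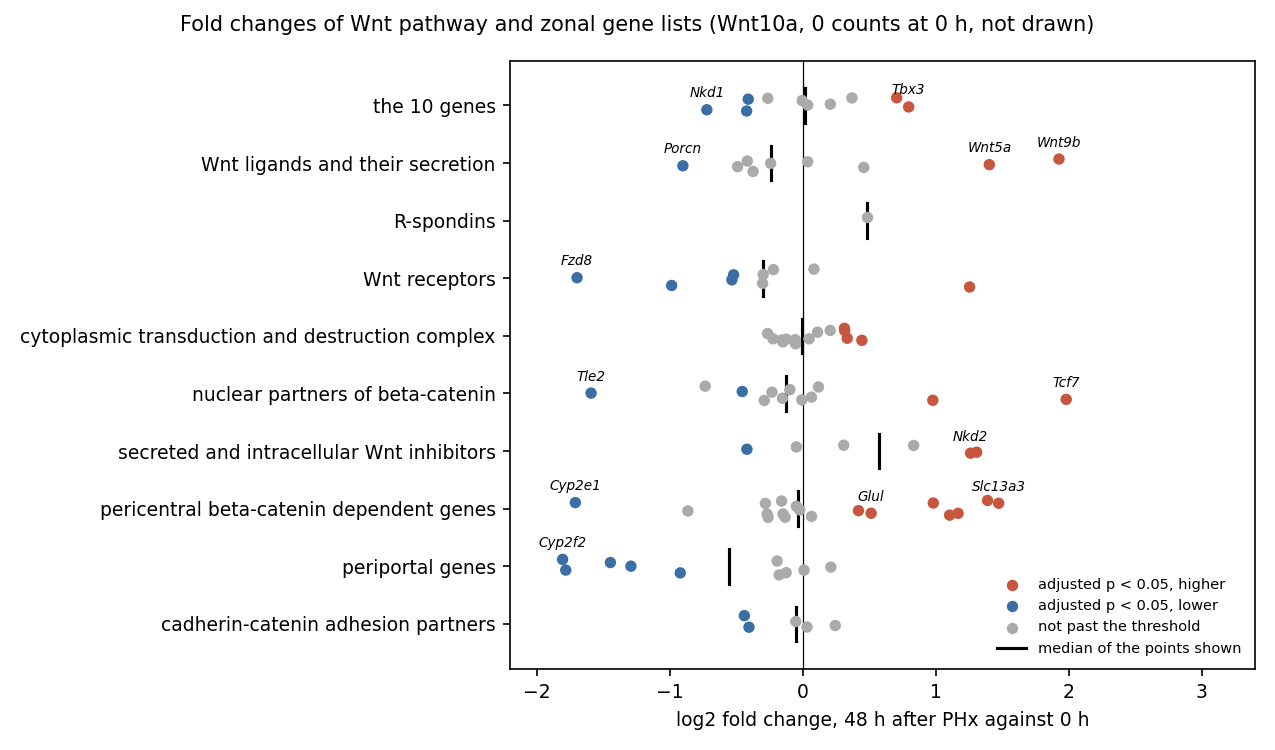
Log2 fold change at 48 h against 0 h (horizontal axis) for each tested gene of the 10 and of 9 gene lists, colored by the edgeR call. Wnt10a, with 0 counts at 0 h, is not drawn. A vertical bar marks the median of the points shown. The 10 genes spread on both sides of 0, receptors and periportal genes lie mostly below it, and pericentral genes range from Cyp2e1 at −1.71 to Slc13a3 at 1.47.

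Of 18 genes that depend on β-catenin in pericentral hepatocytes, all tested, 7 were called higher (38.9%, against 21.4% of all genes tested) and 1 lower (5.56%, against 19.3%), with a median log2 fold change of −0.04. Without 48 h replicate 3, 3 were called lower, Cyp2e1, Cyp1a2 and Cyp2a5, the last named after its values were seen. Glul, the glutamine synthetase of the innermost pericentral cells, had 317.6, 231.3 and 320.0 CPM at 0 h and 360.8, 423.3 and 457.3 CPM at 48 h (log2 fold change 0.51, edgeR adjusted p = 0.0254). Its call was lost without 0 h replicate 2 (adjusted p = 0.0573), 48 h replicate 2 (0.0741) or 48 h replicate 3 (0.0761). Oat, which feeds ornithine carbon to glutamate, went from 305.7 ± 33.6 to 687.2 ± 119 CPM (SD, n = 3, edgeR adjusted p = 0.000242). The dicarboxylate carrier Slc13a3 rose by 1.47 on the log2 scale (edgeR adjusted p = 0.000152), Sp5, a Wnt-induced transcription factor, by 1.39 (0.000801), and Lhpp and Ahr by 1.10 (4.5e-05) and 0.98 (0.000395). Lect2 rose by 0.42 (edgeR adjusted p = 0.0332), a call lost with upper quartile scaling (0.0601), without 0 h replicate 1 (0.0632) or 2 (0.0827) or without 48 h replicate 2 (0.108) or 3 (0.105). Cyp2e1, the ethanol-metabolizing cytochrome, was the one called lower, from 6567 ± 752 to 2007 ± 381 CPM (SD, n = 3), a log2 fold change of −1.71 (edgeR adjusted p = 6.9e-05). Cyp1a2 read 480.3, 779.2 and 1917 CPM in the 48 h libraries against 1160 ± 92.0 at 0 h (edgeR adjusted p = 0.811, log2 fold change −0.13). Without 48 h replicate 3, the highest, its log2 fold change was −0.89 and it was called lower (adjusted p = 0.00877). Slc1a2 and Tnfrsf19 had log2 fold changes of −0.02 and −0.05 (edgeR adjusted p = 0.935 and 0.878).

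Of 10 periportal genes, 5 were lower and 0 higher by edgeR (0 at an unadjusted p under 0.05, and 0 by DESeq2), with a median log2 fold change of −0.56. Of all genes tested, 19.3% were lower and 21.4% higher. Cyp2f2, Pigr and Hal fell by 1.81, 1.78 and 1.45 on the log2 scale (edgeR adjusted p = 2.5e-05, 2.5e-05 and 0.000357). Of 5 genes for cadherins and catenins of cell adhesion, 2 were called lower (40%, against 19.3% of all genes tested) and 0 higher, and 3 did not pass the test. Cdh1 and Cdh2 fell by 0.44 and 0.40 (edgeR adjusted p = 0.0390 and 0.0368). Both calls were lost with library size only (0.175 and 0.335), when 1 of the 5 was called higher, and in 4 of the 6 fits that left out a library.

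Promoter sequence was examined because β-catenin acts through TCF/LEF factors, whose core motif was searched as CTTTGAT and CTTTGAA on both strands, in RefSeq windows from 250 bases before to 50 bases after each gene start (GRCm38.p6). Of 32851 windows, 8.65% held either motif. Windows were given for 6 of the 10 genes (Axin2, Lgr4, Rnf43, Ctnnb1, Tcf7l2 and Nkd1), 9 windows in all, and 0 held a match. So few windows cannot set 0 apart from 8.65%. Lgr5, Tbx3, Znrf3 and Notum had no window in the table. Of the 18 pericentral genes, 13 had windows and 6 held a match, Sp5, Slc1a2, Cyp2e1, Cyp1a2, Lect2 and Tnfrsf19. Counted by window, 42.9% of their 14 windows held a match, against 8.65% of all windows, and the difference was not tested. A match is only a run of letters, and the absence of one says only that the run is not in this window. The stretches below give Axin2, which rose, and Lgr4, which fell, upstream of the start without a match, and the sites of Sp5, which rose, and Cyp2e1, which fell, with the match in capitals. All are on the plus strand.
Axin2, chr11:108920099-108920348: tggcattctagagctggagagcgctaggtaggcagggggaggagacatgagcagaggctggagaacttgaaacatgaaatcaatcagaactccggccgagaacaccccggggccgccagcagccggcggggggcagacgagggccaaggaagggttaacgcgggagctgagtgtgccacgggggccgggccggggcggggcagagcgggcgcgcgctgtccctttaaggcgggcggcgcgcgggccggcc
Lgr4, chr2:109917397-109917646: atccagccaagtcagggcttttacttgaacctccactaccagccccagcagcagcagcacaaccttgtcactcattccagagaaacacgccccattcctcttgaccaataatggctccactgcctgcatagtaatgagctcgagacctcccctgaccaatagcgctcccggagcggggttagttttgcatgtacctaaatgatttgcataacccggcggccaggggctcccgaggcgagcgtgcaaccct
Sp5, chr2:70474792-70474852: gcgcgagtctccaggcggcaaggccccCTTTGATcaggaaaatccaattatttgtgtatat
Cyp2e1, chr7:140763657-140763717: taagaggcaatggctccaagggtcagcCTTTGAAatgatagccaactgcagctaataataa
The Axin2 stretch is 69.2% G and C with 24 CpG pairs, and that of Lgr4 55.6% with 10. A matching motif stood in front of a gene that rose and of a gene that fell.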

How the data were processed

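Total RNA of 6 mouse hepatocyte preparations was sequenced, 3 at 0 h and 3 at 48 h after PHx, and libraries were grouped by the time point in their labels. Per the submitters' processing notes, the tools were FastQC 0.11.5, Trim Galore 0.6.4, STAR 2.6, HTSeq 0.12.4 and DESeq2, with mm10. The authors deposited raw counts per gene, without normalization. Strand setting and counting mode are not given in the sources used here. Identifiers matched GENCODE M21 (GRCm38) in full.

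Tests used edgeR 4.0.16 (R 4.3.3; TMM, glmQLFit and glmQLFTest, time as the only term) over 17037 genes with at least 10 counts in 3 libraries, after a run on simulated data, and p-values were adjusted over all of them. CPM and RPKM are TMM-scaled. RPKM used the exon length of all isoforms together. The floor of 3 counts equals 0.0839 to 0.102 CPM and covers counting error only. Alternatives used limma 3.58.1, DESeq2 1.42.0, other scalings and count filters, a replicate block, and each library left out in turn.

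The 10 genes and all lists were chosen with earlier results of these data known. From each list, up to 3 genes per direction with the largest called and non-overlapping changes were named, with a fixed set of 18 further genes; Fzd5, Gsk3a, Lhpp, Ahr, Lect2, Cyp2a5, Dact1 and Dact2 were named after their values were seen.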

Additional observations from a re-analysis of the deposited data

How the results depend on the processing

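Axin2 and Tbx3 were called higher in all 16 alternatives. With library size only, 5308 genes were called higher and 2110 lower, and among the 10 genes 4 were higher and 0 lower. Of the 6 pathway lists, 18 genes were then higher and 4 lower, against 12 and 8 with TMM. Lgr5 then had a log2 fold change of 0.20. Requiring at least 50 counts in 3 libraries left 7 pathway list genes called higher, since fewer were tested. Pericentral genes called lower numbered 3 with upper quartile scaling, 2 with TMM from protein-coding genes, 2 without a filter and 2 with the replicate block. Ctnnb1 had −0.046 with upper quartile scaling and −0.015 with protein-coding TMM. Where not stated, the cause was not tested.

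Leaving out each library in turn gave 2874 to 3451 genes higher and 2638 to 3223 lower. Of the 10 genes, 2 to 3 were higher and 1 to 2 lower. Pathway list genes numbered 8 to 10 higher and 4 to 9 lower, and pericentral genes 5 to 7 higher and 1 to 3 lower. The log2 fold change ran from −0.119 to 0.075 for Lgr5 and from −0.042 to 0.078 for Ctnnb1.

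Replicate numbers do not pair the libraries, since same-numbered libraries are different mice and their deviations correlated at 0.036, −0.0931 and −0.166. The replicate block called 3237 genes up and 2884 down, and among the 10 genes it ended the call of Nkd1 alone. DESeq2 called 3463 higher and 3263 lower and kept 94.7% of the calls.

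With 3 libraries per time point, the 95% interval of Notum (−0.62 to 0.10) includes a decrease of the size seen in Lgr4 (−0.42), though its estimate was −0.06 without 0 h replicate 2, and those of Lgr5 (−0.30 to 0.29) and Ctnnb1 (−0.20 to 0.28) do not. Nkd1, at 43 to 97 counts per library, had the widest interval of the 10 genes.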
